A study of Mus musculus with 12 samples.

Results

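A set of 8 genes that mark the oligodendrocyte lineage were followed in RNA of the mouse spinal cord. They were Pdgfra and Cspg4, Gpr17, Bmp4 and Enpp6, and Olig1, Olig2 and Sox10, taken by gene symbol, 8 of the 45906 genes listed. After removal of genes with low counts 20155 genes were tested, and all 8 were among them. RNA came from 12 mice aged 7 months. A group of 3 was Plekhg5+/+ and a group of 3 Plekhg5-/-, and the same Plekhg5 genotypes were studied with the SOD1-G93A transgene, as 3 Plekhg5+/+ SOD1-G93A and 3 Plekhg5-/- SOD1-G93A mice. All mice were on a C57BL/6 background. The study did not consider their sex and states that the sexes were spread equally over its experiments. Plekhg5, a guanine nucleotide exchange factor for small GTPases, is lost in the Plekhg5-/- mice, and the SOD1-G93A transgene expresses human SOD1 carrying a mutation of familial amyotrophic lateral sclerosis (ALS). The study asked how loss of Plekhg5 changes gene expression in the spinal cord of this ALS model.

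Oligodendrocyte progenitor cells persist in the adult spinal cord, divide, and give rise to new myelinating oligodendrocytes. On this path they lose the progenitor receptors, pass through a short committed stage, and then switch on the myelin genes, while the transcription factors of the lineage stay on throughout. Oligodendrocyte degeneration and renewed differentiation of progenitors have been described in SOD1 mutant mice. The whole cord holds all its other cells as well, and in such bulk RNA fewer cells of a type cannot be told apart from less RNA per cell.

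The libraries held between 30415643 and 38743628 counts. Counts scaled to library size are given as CPM. Plekhg5 had 22.9 ± 3.08 CPM (SD, n = 3) in Plekhg5+/+ and 22.4 ± 2.19 in Plekhg5+/+ SOD1-G93A mice, against 3.99 ± 0.712 in Plekhg5-/- and 4.26 ± 0.413 in Plekhg5-/- SOD1-G93A mice. Human SOD1 had 4993 ± 612 and 5001 ± 97.1 CPM in the transgenic groups and at most 5.47 CPM in any other library, so each library carried the transcripts of its label. Y-linked transcripts were present in 8 of the 12 libraries, in all 3 without Plekhg5 loss or transgene, in 2 with each of these alone and in 1 Plekhg5-/- SOD1-G93A library. The sexes were thus not balanced over the genotypes of these 12 libraries, unlike the equal spread that the study states for its experiments. A fit with the presence of Y-linked transcripts as a covariate called 0 of the 8 genes in each comparison.

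Reference promoters, from 250 bases before to 50 bases after a transcription start, were at hand for 5 of the 8 genes (RefSeq, GRCm38.p6). Those of Pdgfra, Olig2 and Enpp6 are shown, as a progenitor receptor, a transcription factor of all stages and an enzyme of newly forming cells. The Pdgfra window is chr5:75152001-75152300, the Olig2 window chr16:91225300-91225599 and the Enpp6 window chr8:46986637-46986936, all on the plus strand. Capitals mark the match to one of the motifs searched.
Pdgfra: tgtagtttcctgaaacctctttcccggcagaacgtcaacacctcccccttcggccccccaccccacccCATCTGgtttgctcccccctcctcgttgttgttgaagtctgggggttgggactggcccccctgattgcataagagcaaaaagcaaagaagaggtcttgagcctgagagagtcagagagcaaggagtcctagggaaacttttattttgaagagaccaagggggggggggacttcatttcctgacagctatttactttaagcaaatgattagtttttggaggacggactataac
Olig2: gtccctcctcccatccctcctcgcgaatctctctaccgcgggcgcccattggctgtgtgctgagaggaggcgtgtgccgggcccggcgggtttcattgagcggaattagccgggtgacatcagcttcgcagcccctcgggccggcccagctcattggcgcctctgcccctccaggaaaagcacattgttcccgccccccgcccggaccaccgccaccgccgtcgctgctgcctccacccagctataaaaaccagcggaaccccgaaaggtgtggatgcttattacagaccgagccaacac
Enpp6: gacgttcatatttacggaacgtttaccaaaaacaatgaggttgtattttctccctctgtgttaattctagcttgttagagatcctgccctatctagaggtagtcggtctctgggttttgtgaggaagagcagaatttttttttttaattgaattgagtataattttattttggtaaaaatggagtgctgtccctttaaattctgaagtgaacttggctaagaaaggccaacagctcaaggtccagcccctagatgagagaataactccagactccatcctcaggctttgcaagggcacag
The windows differed in base composition, with 51% G and C in Pdgfra, 65% in Olig2 and 40.3% in Enpp6 beside a median of 52.7% over all 32851 promoters. Cspg4 with 60% and Bmp4 with 64% lay near Olig2. The motifs searched on both strands were CAGATG and CATATG, E-boxes of the kind bound by Olig proteins, and ACAAAG, a Sox motif, none of which overlaps another by its letters in these windows. CAGATG was found once, in Pdgfra, where it reads CATCTG at position -182 from the transcription start. Of all promoters, 17.2% held CAGATG, 3.91% CATATG and 18.7% ACAAAG.

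Levels differed widely between the 8 genes and little between genotypes. To compare genes, CPM were divided by the exon length in kilobases. Over the 12 libraries Olig1 had the highest median on this scale at 102.7, followed by Sox10 at 44.8, Olig2 at 19.3, Enpp6 at 8.83, Gpr17 at 7.37, Pdgfra at 6.12, Cspg4 at 2.28 and Bmp4 at 1.11. Olig1 thus stood above 97.6% of all genes tested and Bmp4 above 29.6%. The ranges of neighbours in this order overlapped for Enpp6 and Gpr17, with Enpp6 the higher in 9 of 12 libraries, and for Gpr17 and Pdgfra, although Gpr17 was the higher in each of the 12. The other neighbours were separated in all libraries by ratios of their medians between 2.05 and 2.68.

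**Figure D1:**
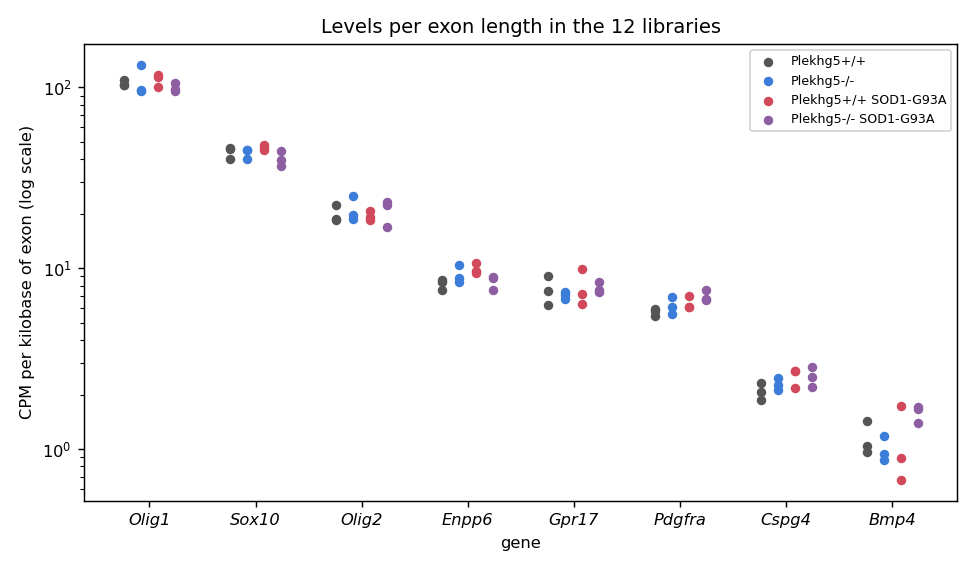
Level of each of the 8 genes in the 12 libraries, as CPM per kilobase of exon on a log axis, coloured by genotype. The genes span from a median of 102.7 for Olig1 to 1.11 for Bmp4, while the genotypes of 1 gene lie close together.

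Across the libraries the highest value of a gene was 1.29 times the lowest for Sox10 and 1.57 times for Gpr17, with the other genes but Bmp4 between these. For Bmp4, counted with only 42 to 132 counts per library, the ratio was 2.55. The spread between mice of a genotype, as SD of log2 CPM, had a median of 0.159 over the 8 genes and 0.151 over all genes tested. It was smallest for Sox10 with 0.101 and largest for Bmp4 with 0.393.

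No member of the list passed the test in any comparison. edgeR called 0 of 8 genes at an adjusted p under 0.05 for SOD1-G93A in mice with Plekhg5, where 2.47% of all genes were called, and 0 of 8 for SOD1-G93A in mice without Plekhg5, where 0.00496% were called. It also called 0 of 8 for Plekhg5 loss with SOD1-G93A (0.0347% of all genes) and 0 of 8 for Plekhg5 loss without it (0.0298%). The interaction, which asks whether the effect of SOD1-G93A differs between the Plekhg5 genotypes, gave 0 of 8 (0% of all genes, with 9.05% at an unadjusted p under 0.05). For the effect of SOD1-G93A averaged over both Plekhg5 genotypes it was 0 of 8 (1.22%), and for Plekhg5 loss averaged with and without SOD1-G93A 0 of 8 (0.0546%). DESeq2, with or without a prior on fold changes, likewise called 0 of 8 in each of these 7 comparisons. With backgrounds this low, a count of 0 of 8 is near what all genes gave.

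Each 95% interval gives the fold changes that remain compatible with the data for 1 gene in 1 comparison, and together they are no joint bound. Over the 4 comparisons of 2 genotypes, the fitted fold changes of the 7 genes other than Bmp4 lay between 0.852 and 1.21, and their 95% intervals between 0.739 and 1.45. The intervals of Bmp4 ran from 0.567 to 2.43 there. In the interaction the intervals of the 7 genes ran from 0.621 to 1.47. In the middle of the 8 genes, the median of their log2 fold changes was 0.07 for SOD1-G93A with Plekhg5, 0.05 without Plekhg5, -0.01 for Plekhg5 loss with SOD1-G93A and 0.07 for Plekhg5 loss without it, each beside a median between -0.01 and 0.01 over all genes. These comparisons share libraries, so they are not independent of each other.

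**Figure D2:**
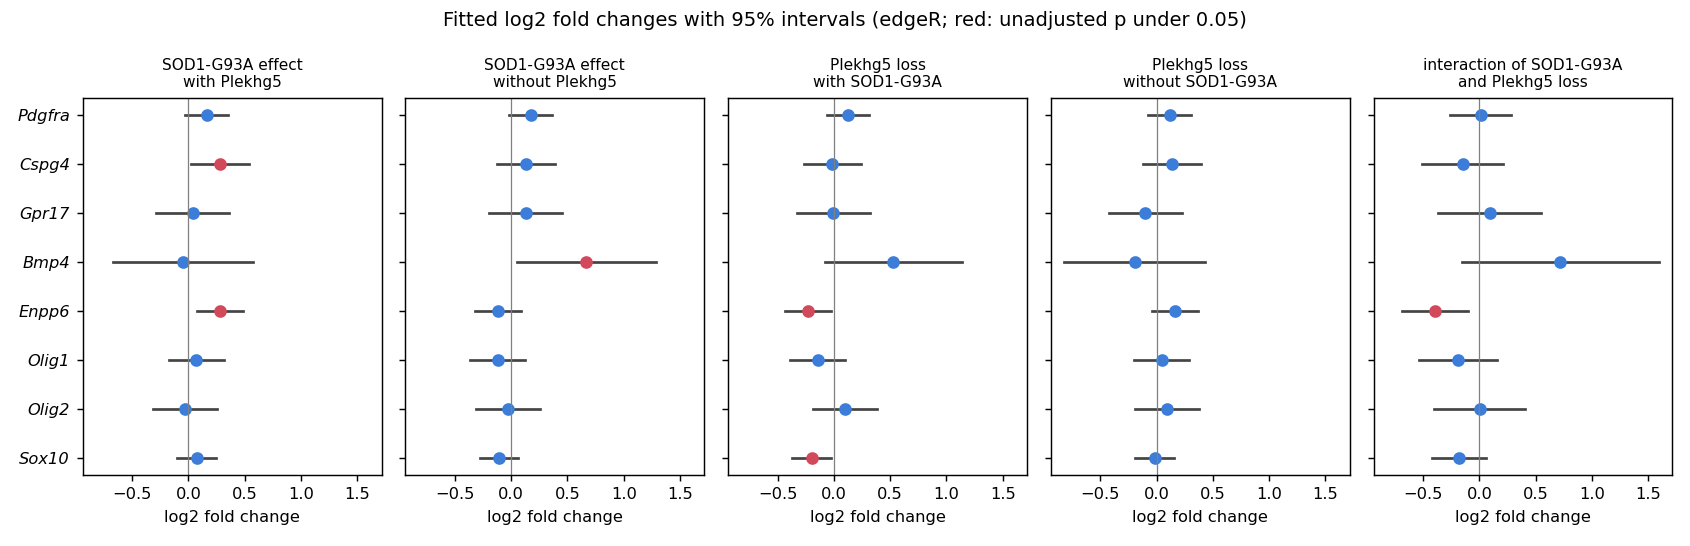
Fitted log2 fold changes of the 8 genes with 95% intervals (edgeR), in the 4 comparisons of 2 genotypes and the interaction. Red points have an unadjusted p under 0.05, and 0 of the 8 genes passed after adjustment in any panel.

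At an unadjusted p under 0.05, Cspg4 and Enpp6 were the 2 of 8 genes with a difference for SOD1-G93A with Plekhg5, both higher, beside 18.2% of all genes in either direction and 10.6% that were higher. Bmp4 was the 1 of 8 for SOD1-G93A without Plekhg5 (5.38% of all genes, and 3.27% of all genes higher), Sox10 and Enpp6 were the 2 of 8, both lower, for Plekhg5 loss with SOD1-G93A (8.64% of all genes, and 5.05% of all genes lower), and 0 of 8 were found for Plekhg5 loss without SOD1-G93A (5.32%). In the interaction this was Enpp6 alone (9.05%, 5.18% below 0), and in the average over both Plekhg5 genotypes Pdgfra and Cspg4, both higher with SOD1-G93A (14.7%, 9.39% higher). Plekhg5 loss averaged with and without SOD1-G93A gave 0 of 8 (3.88%). DESeq2 gave the same counts at an unadjusted p under 0.05 in each comparison. The next paragraphs give the values of each gene by its place in the lineage.

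Pdgfra encodes the receptor for platelet-derived growth factor A, the mitogen of progenitor cells, and lies at chr5:75151322-75198206 on the plus strand. Its promoter window shown above, with the CATCTG match, is inside the gene as counted. Pdgfra had 49.4, 52.7 and 54.3 CPM in Plekhg5+/+ mice and 63.2, 55.7 and 50.5 CPM in Plekhg5-/- mice. With the transgene the values were 63.7, 55.7 and 55.7 CPM in Plekhg5+/+ SOD1-G93A and 61.0, 68.9 and 61.3 CPM in Plekhg5-/- SOD1-G93A mice. All 3 Plekhg5+/+ SOD1-G93A libraries lay above all 3 Plekhg5+/+ libraries, an order found for 11.6% of all genes, with 20.6% free of overlap in either direction, and the Plekhg5-/- and Plekhg5-/- SOD1-G93A libraries overlapped. The log2 fold change for SOD1-G93A was 0.16 ± 0.0879 (SE) with Plekhg5 and 0.17 ± 0.0876 without it. Averaged over both it was 0.17 ± 0.0620, a 1.12-fold higher level (95% interval 1.02 to 1.23), with an adjusted p of 0.212 (edgeR). The interaction was 0.01 ± 0.124, with an interval from -0.26 to 0.28.

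Cspg4 encodes the NG2 proteoglycan on the surface of progenitor cells and also of pericytes, and lies at chr9:56865104-56899870. Its levels were low, with 15.1, 16.7 and 18.6 CPM in Plekhg5+/+, and 17.1, 18.2 and 19.9 CPM in Plekhg5-/- mice. They were 21.8, 21.7 and 17.5 CPM in Plekhg5+/+ SOD1-G93A, and 22.9, 20.01 and 17.6 CPM in Plekhg5-/- SOD1-G93A mice. In both transgenic groups 1 library lay within the range of its control group and 2 above it. The log2 fold change for SOD1-G93A with Plekhg5 was 0.28 ± 0.118 (adjusted p = 0.233), and averaged over both Plekhg5 genotypes it was 0.20 ± 0.0836 (adjusted p = 0.272). Loss of Plekhg5 gave -0.01 with SOD1-G93A and 0.14 without it.

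Cells other than progenitors also make these transcripts. Of the 8 markers of fibroblasts, cells that express Pdgfra too, 0 were called by edgeR in the comparisons of 2 genotypes, while DESeq2 called up to 2 for SOD1-G93A without Plekhg5 and up to 1 for Plekhg5 loss with SOD1-G93A. edgeR called 1, Col1a1, in the average over both Plekhg5 genotypes, where it was higher with SOD1-G93A by a log2 fold change of 0.79 ± 0.137 (adjusted p = 0.0282), a call that held in 6 of the 12 fits that left out 1 library and was lost without any 1 of the Plekhg5+/+ libraries, replicate 3 of Plekhg5-/-, or replicate 1 or 2 of Plekhg5-/- SOD1-G93A. The fibroblast markers summed to 138 to 252 CPM in Plekhg5+/+, 125 to 215 in Plekhg5-/-, 155 to 233 in Plekhg5+/+ SOD1-G93A and 246 to 368 in Plekhg5-/- SOD1-G93A mice, where all 8 had a higher fitted level than in Plekhg5-/- mice. The 8 pericyte markers, with 0 called by edgeR and up to 2 by DESeq2 in the average over both Plekhg5 genotypes, summed to 208 to 229, 176 to 253, 206 to 229 and 262 to 285 CPM in the same order. Across the 12 libraries Pdgfra had a Pearson r of 0.337 with the fibroblast sum (permutation p = 0.281) and Cspg4 one of 0.480 with the pericyte sum (permutation p = 0.114), and the corresponding Spearman rho were 0.210 (permutation p = 0.515) and 0.580 (permutation p = 0.0522). The part of these cells in the levels of Pdgfra and Cspg4 was not tested.

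The other progenitor genes, 12 in number and including Ptprz1, Vcan and Tnr, gave 0 called genes in each comparison, by edgeR and by DESeq2, and 4 of 12 with an unadjusted p under 0.05 for SOD1-G93A with Plekhg5, beside 18.2% of all genes. Their median log2 fold change was 0.12 for SOD1-G93A with Plekhg5, with 9 higher and 3 lower, and 0.02 without Plekhg5, with 7 higher and 5 lower. Their summed level ran from 549 to 649 CPM in Plekhg5+/+ and from 582 to 727 CPM in Plekhg5+/+ SOD1-G93A mice, and overlapped. The ligands of the receptor and its relative Pdgfrb, 5 genes, also gave 0 called genes by edgeR, and DESeq2 called up to 1 in the average over both Plekhg5 genotypes, with summed levels between 114 and 127 CPM over all 12 libraries.

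**Figure D3:**
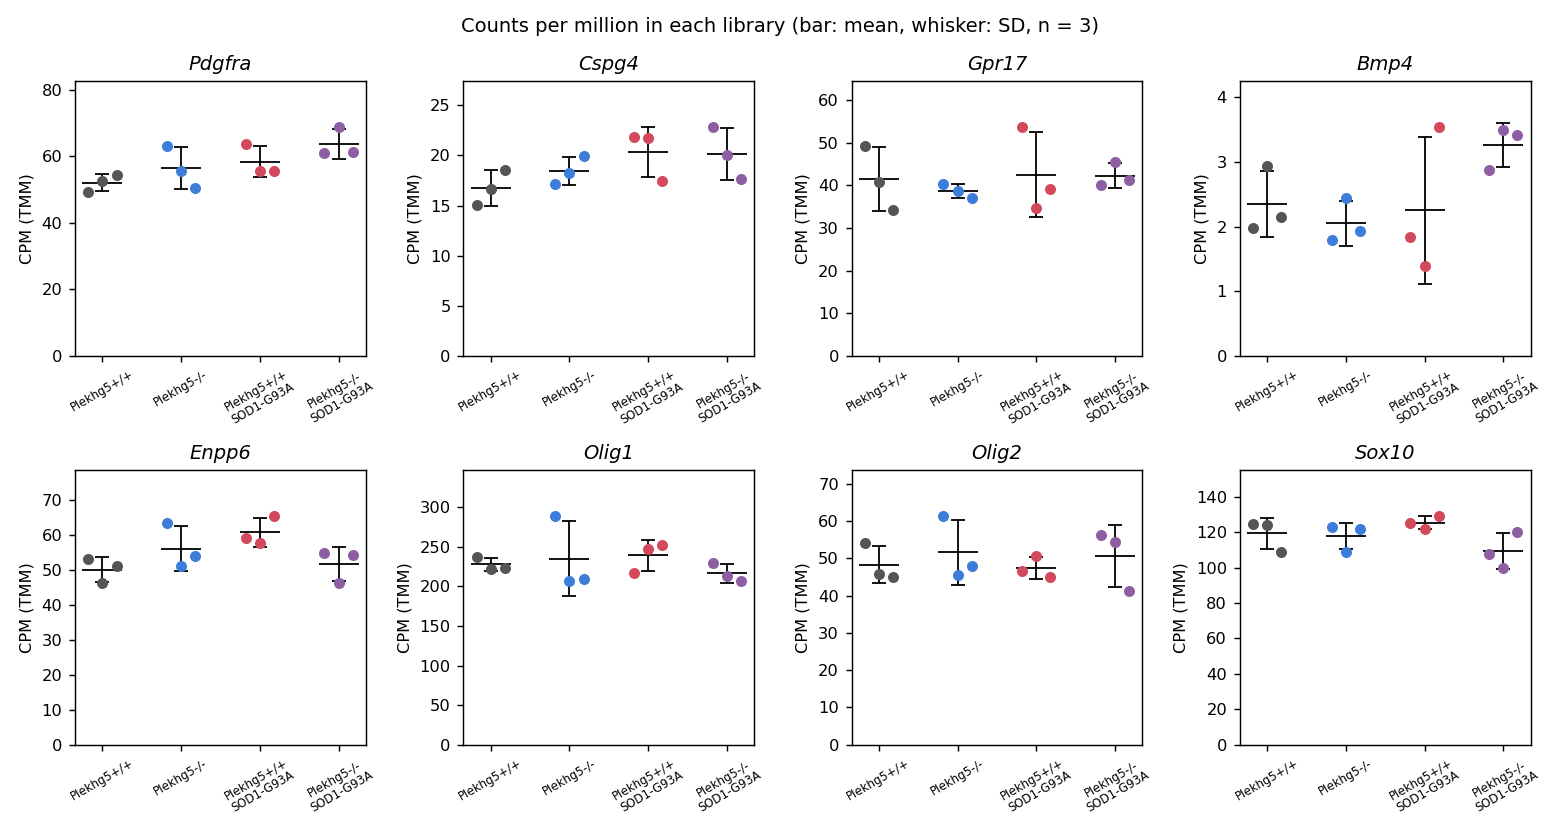
CPM of each of the 8 genes in every library, by genotype, with the mean as a bar and the SD as whiskers (n = 3). Pdgfra and Enpp6 are higher in Plekhg5+/+ SOD1-G93A than in Plekhg5+/+ mice, without overlap. Sox10 and Enpp6 are lower in Plekhg5-/- SOD1-G93A than in Plekhg5+/+ SOD1-G93A mice, and Bmp4 is higher in Plekhg5-/- SOD1-G93A than in Plekhg5-/- mice, also without overlap. The text gives the share of all genes with each such order.

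Gpr17, a receptor of committed oligodendrocyte precursors that is lost as they mature, is on chromosome 18. It had 49.1, 40.9 and 34.2 CPM in Plekhg5+/+ and 40.3, 38.7 and 36.9 CPM in Plekhg5-/- mice. The values were 53.7, 34.7 and 39.2 CPM in Plekhg5+/+ SOD1-G93A and 40.1, 45.5 and 41.3 CPM in Plekhg5-/- SOD1-G93A mice. Both groups with Plekhg5 were wide, and the groups without it lay within their range. In the 4 comparisons of 2 genotypes the fitted log2 fold changes ran from -0.10 for Plekhg5 loss without SOD1-G93A to 0.13 for SOD1-G93A without Plekhg5, with adjusted p of 0.931 or more, and over all 7 comparisons the lowest adjusted p was 0.807.

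Enpp6, a choline phosphodiesterase of newly forming oligodendrocytes, lies at chr8:46939197-47096762, and the promoter shown above is inside the gene as counted. It had 52.9, 46.0 and 51.1 CPM in Plekhg5+/+ and 63.3, 51.0 and 53.8 CPM in Plekhg5-/- mice. In Plekhg5+/+ SOD1-G93A mice it had 59.1, 57.6 and 65.4 CPM, all above the Plekhg5+/+ values (11.6% of all genes, and 20.6% in either direction). In Plekhg5-/- SOD1-G93A mice it had 54.8, 46.1 and 54.2 CPM, all below those of the Plekhg5+/+ SOD1-G93A mice, an order found for 10% of all genes, with 19.5% free of overlap in either direction. The Plekhg5-/- SOD1-G93A libraries overlapped with those of Plekhg5-/- and of Plekhg5+/+ mice.

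The log2 fold change of Enpp6 for SOD1-G93A was 0.28 ± 0.0950 with Plekhg5, a 1.21-fold higher level (95% interval 1.05 to 1.40), with an adjusted p of 0.137 (edgeR). Without Plekhg5 it was -0.12 ± 0.0949, with an adjusted p of 0.950, and -0.03 without replicate 1 of Plekhg5-/-, the highest library of that group. Loss of Plekhg5 gave -0.23 ± 0.0948 with SOD1-G93A (adjusted p = 0.538) and 0.16 ± 0.0950 without it (adjusted p = 0.969), the latter 0.07 when replicate 1 of Plekhg5-/- was left out. The interaction was -0.40 ± 0.134, with an interval from -0.69 to -0.11 and an adjusted p of 0.447. With each library left out in turn it stayed between -0.46 and -0.29.

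The genes of mature oligodendrocytes, 19 in number, were described beside Enpp6. For SOD1-G93A without Plekhg5 18 of 19 were lower, with a median log2 fold change of -0.16. There 5 of 19 had an unadjusted p under 0.05 (edgeR), beside 5.38% of all genes, and 0 were called. The summed level of the 19 was 27568 to 36276 CPM in Plekhg5-/- and 25917 to 28162 CPM in Plekhg5-/- SOD1-G93A mice. These sums overlapped (two-sided exact permutation p = 0.5). Replicate 1 of Plekhg5-/- had 36276 CPM, against 27908 and 27568 in replicates 2 and 3. How far the median rests on that library was not tested. With Plekhg5 14 of 19 were higher, with a median of 0.11, and 8 of 19 had an unadjusted p under 0.05, beside 18.2%. In that comparison DESeq2 with the prior called 3, and edgeR up to 4 with a library left out. The main fit called 1 of 19, Opalin, a membrane protein of myelinating cells. Opalin had 24.4, 24.6 and 35.7 CPM in Plekhg5+/+ and 49.4, 48.8 and 45.8 CPM in Plekhg5+/+ SOD1-G93A mice. Its log2 fold change was 0.76 ± 0.135 (adjusted p = 0.0165), and the call was lost without replicate 1 or replicate 2 of Plekhg5+/+ and when only these 2 genotypes were fitted. Without the transgene Opalin had 48.2, 42.7 and 48.9 CPM in Plekhg5-/- mice, all above Plekhg5+/+, with a log2 fold change of 0.72 ± 0.135 and an adjusted p of 0.236. In Plekhg5-/- SOD1-G93A mice it had 39.5, 31.5 and 39.5 CPM.

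Of the mature genes, 18 of 19 had a lower fitted level with Plekhg5 loss in SOD1-G93A mice, with a median log2 fold change of -0.21, 7 of 19 with an unadjusted p under 0.05 beside 8.64% of all genes, and 0 called by edgeR and 1 by DESeq2 with the prior. The interaction also draws on replicate 1 of Plekhg5-/-, the library with the highest mature sum. In the same direction as Enpp6, the median of the 19 in the interaction was -0.27, beside -0.01 over all genes. There 8 of 19 had an unadjusted p under 0.05, beside 9.05% of all genes, 0 were called by edgeR and 2 by DESeq2 with the prior. Their summed level was 28304 to 32564 CPM in Plekhg5+/+ SOD1-G93A and 25917 to 28162 CPM in Plekhg5-/- SOD1-G93A mice, which did not overlap (two-sided exact permutation p = 0.1, the smallest that 3 against 3 mice can give). Across the 12 libraries Enpp6 had a Pearson r of 0.736 with this sum (permutation p = 0.00589, adjusted 0.0147 over the 5 relations of this kind that were computed) and a Spearman rho of 0.748 (permutation p = 0.0073). Without the 2 libraries farthest from the median sum r was 0.458, and with genotype means removed it was 0.837. This pair and that of Bmp4 with fibroblast markers were chosen after the values were seen.

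The 3 genes closest to Enpp6 over the 12 libraries, by Pearson r of log2 CPM among all genes tested, were Idh1 with 0.954, Pllp with 0.949 and Krtcap2 with 0.947. Pllp, which encodes the myelin protein plasmolipin, averaged 112 ± 5.90 CPM in Plekhg5+/+ and 154 ± 8.43 CPM in Plekhg5+/+ SOD1-G93A mice (SD, n = 3). Without Plekhg5 its mean was 143 ± 21.0 CPM without and 116 ± 13.5 CPM with the transgene. Such closest genes were picked from all genes tested and carry no test.

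The other genes of committed and newly formed cells, 11 in number and including Bcas1 and Itpr2, gave 0 called genes in each comparison by edgeR, and DESeq2 called up to 1 in the average over both Plekhg5 genotypes. Their median log2 fold change was -0.02 for SOD1-G93A with Plekhg5, with 5 higher and 6 lower, and 0.01 for Plekhg5 loss with SOD1-G93A, with 6 higher and 5 lower. The summed level was 1124 to 1224 CPM in Plekhg5+/+ and 1073 to 1101 CPM in Plekhg5+/+ SOD1-G93A mice, a ratio of 0.927 (two-sided exact permutation p = 0.1). Bcas1 made up 63.8% of this sum, and without it the other 10 genes gave a ratio of 0.992 (exact permutation p = 1), with 399.6 to 437 CPM in Plekhg5+/+ and 400.2 to 444 CPM in Plekhg5+/+ SOD1-G93A mice.

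Bmp4, a secreted bone morphogenetic protein that is made by committed precursors and that holds back oligodendrocyte differentiation, lies at chr14:46383525-46390669 on the minus strand. It was the lowest and the most variable of the 8 genes. It had 1.97, 2.93 and 2.14 CPM in Plekhg5+/+ and 1.78, 2.44 and 1.92 CPM in Plekhg5-/- mice. In Plekhg5+/+ SOD1-G93A mice it had 1.83, 1.39 and 3.54 CPM, which are the lowest and the highest of the 12 values, and in Plekhg5-/- SOD1-G93A mice 2.87, 3.49 and 3.42 CPM. The Plekhg5-/- SOD1-G93A libraries lay above all Plekhg5-/- libraries, as did 7.25% of all genes, with 12.5% free of overlap in either direction. For Plekhg5 loss without SOD1-G93A, where 8.71% of all genes were free of overlap, 0 of the 8 genes were.

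For SOD1-G93A without Plekhg5 the log2 fold change of Bmp4 was 0.67 ± 0.283, a 1.59-fold higher level with a 95% interval from 1.04 to 2.43 and an adjusted p of 0.892. With Plekhg5 it was -0.05 ± 0.288. Plekhg5 loss with SOD1-G93A gave 0.53 ± 0.282 (adjusted p = 0.595), which became 1.01 without replicate 3 of Plekhg5+/+ SOD1-G93A and 0.29 without replicate 2. Counting error alone gives an SD of 0.126 to 0.223 on the log2 scale at these counts, below the SD of 0.393 between mice of a genotype.

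Bmp4 followed the fibroblast markers across libraries, with a Pearson r of 0.794 (permutation p = 0.00262, adjusted 0.0131 over the 5 relations) and a Spearman rho of 0.804 (permutation p = 0.00246). The pair was chosen after the values were seen, and the adjustment covers only the 5 relations computed. The permutations also ran over all 12 libraries without regard to genotype. These p thus describe the pair and are no independent test of it. Without the 2 libraries farthest from the median sum r was 0.732, and with genotype means removed 0.647. The fibroblast sum of the Plekhg5-/- SOD1-G93A mice did not overlap with that of the Plekhg5-/- mice, at a ratio of 1.99 (two-sided exact permutation p = 0.1). The 3 genes closest to Bmp4 were Foxd2 with r = 0.959, Foxc2 with 0.958 and Lbp with 0.956, of which Foxc2 encodes a forkhead factor of mesenchymal and vascular cells. Lbp had 6.68 ± 1.98 CPM in Plekhg5-/- SOD1-G93A and 3.28 ± 0.642 CPM in Plekhg5-/- mice. The part of meningeal or vascular cells in the level of Bmp4 was not tested.

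Few other genes of the bone morphogenetic protein pathway passed the test. The 6 other ligands, the 6 receptors, the 10 antagonists and inhibitors and the 4 Smad effectors gave 0 called genes in each comparison by edgeR, and DESeq2 called up to 1 inhibitor for SOD1-G93A without Plekhg5 and up to 1 in the average over both Plekhg5 genotypes. Of the 4 target genes of the Id family, Id1 alone was called, lower in Plekhg5+/+ SOD1-G93A mice with 9.19, 9.77 and 9.90 CPM against 17.4, 12.9 and 12.2 CPM in Plekhg5+/+ mice. Its log2 fold change was -0.56 ± 0.129 (adjusted p = 0.0434), and the call held in 3 of the 12 fits that left out 1 library. The other 3 Id genes had a higher fitted level, and the sum of the 4 overlapped between these groups.

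Olig1 and Olig2 encode paired basic helix-loop-helix factors that specify the lineage and lie next to each other on chromosome 16, Olig2 at chr16:91225550-91228677 and Olig1 at chr16:91269769-91271939. Olig1 had 237, 222 and 223 CPM in Plekhg5+/+ and 289, 207 and 209 CPM in Plekhg5-/- mice. The values were 217, 247 and 253 CPM in Plekhg5+/+ SOD1-G93A and 229, 214 and 206 CPM in Plekhg5-/- SOD1-G93A mice. Replicate 1 of Plekhg5-/- was the highest of all libraries, and the groups overlapped.

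Olig2 had 54.1, 45.8 and 45.0 CPM in Plekhg5+/+ and 61.4, 45.4 and 47.8 CPM in Plekhg5-/- mice. It had 46.5, 50.5 and 44.9 CPM in Plekhg5+/+ SOD1-G93A and 56.2, 54.5 and 41.2 CPM in Plekhg5-/- SOD1-G93A mice. Again replicate 1 of Plekhg5-/- was the highest and the groups overlapped. That library also had the highest summed level of the mature oligodendrocyte genes, at 36276 CPM against 25917 to 32564 CPM in the other 11.

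Sox10, a factor of all stages of the lineage and of Schwann cells, lies at chr15:79154913-79164490 on the minus strand. It was the steadiest gene, with 125, 124 and 109 CPM in Plekhg5+/+ and 123, 109 and 122 CPM in Plekhg5-/- mice. It had 125, 122 and 129 CPM in Plekhg5+/+ SOD1-G93A and 108, 99.9 and 120 CPM in Plekhg5-/- SOD1-G93A mice. The Plekhg5-/- SOD1-G93A libraries lay below the Plekhg5+/+ SOD1-G93A libraries, without overlap. This order was found for 10% of all genes, with 19.5% free of overlap in either direction. The log2 fold change was -0.20 ± 0.0788, a level of 0.872 (95% interval 0.775 to 0.982), with an adjusted p of 0.527 (edgeR). The Plekhg5-/- SOD1-G93A libraries overlapped with the Plekhg5-/- libraries.

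For the effect of SOD1-G93A averaged over both Plekhg5 genotypes, the log2 fold changes of Olig1, Olig2 and Sox10 were all between -0.03 and -0.02. Their 95% intervals ran from 0.852-fold to 1.13-fold. Between mice of a genotype the SD of log2 CPM was 0.101 for Sox10, 0.157 for Olig1 and 0.190 for Olig2, larger than these averages. In the fit of all 12 libraries the averages of Olig1 and Sox10 joined opposite signs. Olig1 had 0.07 ± 0.113 with Plekhg5 and -0.12 ± 0.113 without it, an interaction of -0.19 ± 0.159 (adjusted p = 0.687, edgeR). For Olig1 this rested on replicate 1 of Plekhg5-/-, its highest library. Without that library the effect of SOD1-G93A without Plekhg5 was 0.0493 and the interaction -0.0076. Sox10 had 0.07 ± 0.0788 and -0.11 ± 0.0788, an interaction of -0.18 ± 0.111 (adjusted p = 0.619, edgeR). Olig2 had -0.03 in both. Of 14 other transcription factors of the lineage edgeR called 1, Sox9, which astrocytes express too. It was higher by a log2 fold change of 0.81 ± 0.156 for SOD1-G93A with Plekhg5 (adjusted p = 0.0206). There 5 of 14 had an unadjusted p under 0.05, beside 18.2% of all genes, and DESeq2 without the prior called 2. The sum of the 14 had a ratio of 1.11 there and of 0.906 for Plekhg5 loss with SOD1-G93A, both without overlap (two-sided exact permutation p = 0.1). In the interaction 12 of 14 were below 0, 3 had an unadjusted p under 0.05, beside 9.05% of all genes, and 0 were called by edgeR.

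Schwann cells of the nerve roots also express Sox10. The 8 Schwann cell markers summed to 257 to 559 CPM in Plekhg5+/+, 266 to 322 in Plekhg5-/-, 272 to 414 in Plekhg5+/+ SOD1-G93A and 541 to 747 in Plekhg5-/- SOD1-G93A mice, with 0 called by edgeR and a higher fitted level of all 8 in Plekhg5-/- SOD1-G93A than in Plekhg5+/+ SOD1-G93A mice. In that comparison 6 of the 8 had an unadjusted p under 0.05, beside 8.64% of all genes, and DESeq2 with the prior called 2. For SOD1-G93A without Plekhg5 all 8 were higher, each with an unadjusted p under 0.05 (edgeR), beside 5.38% of all genes. Across the libraries Sox10 had a Pearson r of -0.0881 with this sum (permutation p = 0.785) and a Spearman rho of -0.133 (permutation p = 0.683), and r was 0.695 with genotype means removed. Mean Sox10 was lowest in the genotype in which Schwann cell markers were highest, and their part in its level was not tested.

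Among themselves the 8 genes did not move as a block. Of the 28 pairs 16 had a positive Pearson r over the 12 libraries, with a median of 0.0864, and 0 passed the permutation test after adjustment over the 28 pairs. The highest was that of Olig1 and Enpp6 with r = 0.648 (permutation p = 0.0217, adjusted 0.416) and rho = 0.552 (permutation p = 0.0663), which fell to 0.262 without the 2 libraries farthest from the median of Olig1. Olig1 and Olig2 had r = 0.607 (permutation p = 0.0346, adjusted 0.416) and rho = 0.413 (permutation p = 0.186), and 0.547 without the 2 farthest libraries. Pdgfra and Cspg4, both progenitor genes, had r = 0.441 (permutation p = 0.150, adjusted 0.788) and rho = 0.476 (permutation p = 0.120), and 0.304 without the 2 farthest.

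The closest genes of the others differed from gene to gene. They were Ucn, Gm45929 and Ska3 for Pdgfra (r from 0.866 to 0.903), Tnfaip3, Cenpe and Pars2 for Cspg4 (0.923 to 0.939), and Ppfibp1, Gm16433 and Elf2 for Gpr17 (0.874 to 0.890). For the transcription factors they were Gm7327, Adsl and Atp6v0d1 for Olig1 (0.916 to 0.928), Nub1, Hdc and Apeh for Olig2 (0.828 to 0.865), and Upp1, Ubr7 and Hs1bp3 for Sox10 (0.855 to 0.917). None of the 8 genes was among the closest 3 of another.

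Markers of other cells were called by edgeR in a comparison in which 0 of the 8 genes were, as was Opalin of the mature genes. For SOD1-G93A with Plekhg5 all 8 microglial markers were called, all higher, with Cd68 at a log2 fold change of 2.36 ± 0.300 (adjusted p = 0.0125) and Itgam and Csf1r at 1.06 ± 0.174 and 0.89 ± 0.149. They summed to 269 to 304 CPM in Plekhg5+/+, 299 to 399 in Plekhg5-/-, 511 to 928 in Plekhg5+/+ SOD1-G93A and 383 to 437 in Plekhg5-/- SOD1-G93A mice. Of the 8 astrocyte markers 2 were called, both higher, namely Gfap at 1.23 ± 0.221 (adjusted p = 0.0198) and Sox9. Of the 8 genes of dividing cells 2 were called, both higher, Ccnb1 at 3.10 ± 0.576 (adjusted p = 0.0198) and Cdk1 at 1.35 ± 0.306 (adjusted p = 0.0404), and of the 8 neuronal genes 0 were called by edgeR, 1 by DESeq2 without the prior and up to 2 with a library left out. The calls of these genes and of Opalin ended without replicate 1 or replicate 2 of Plekhg5+/+ and in the fit of only the 2 genotypes, in which 3 genes of all were called. Of the microglial genes P2ry12 and of the dividing cell genes Cdk1 were less steady, called in 3 and in 4 of the 12 fits that left out 1 library, and P2ry12 also lost its call with DESeq2 size factors, without the filter and with at least 10 counts in every library. C1qa and Gfap lost theirs without the filter. CPM are relative to the RNA of all cells of the cord, and the part of these other cells in the levels of the 8 genes was not tested.

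**Figure D4:**
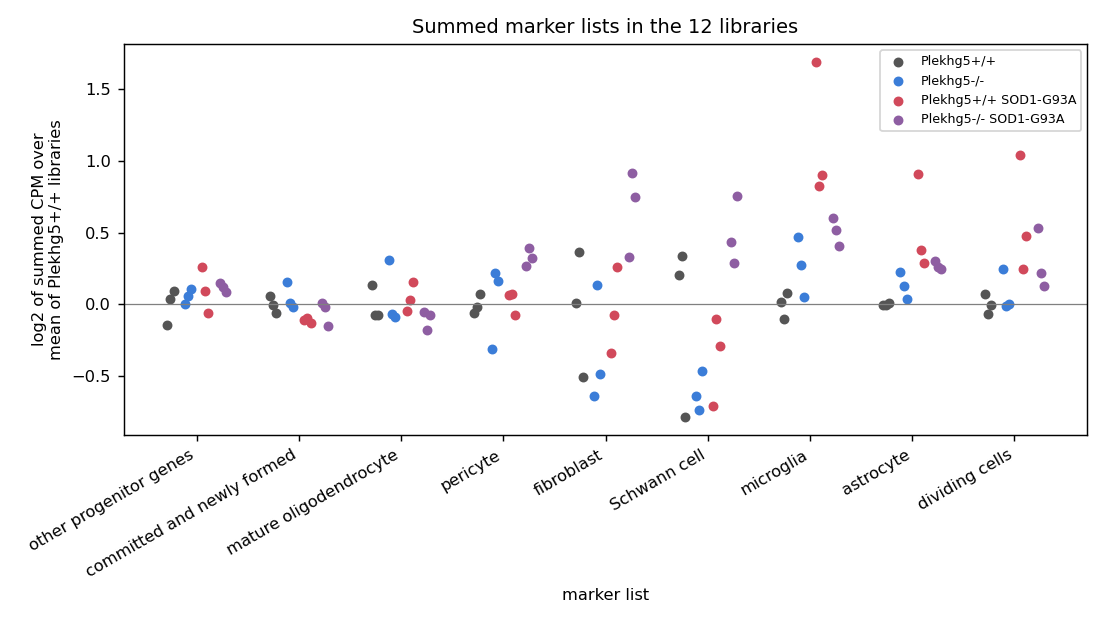
Summed CPM of marker lists in every library, as log2 relative to the mean of the Plekhg5+/+ libraries, coloured by genotype. The progenitor, committed and mature oligodendrocyte lists differ by small ratios. The mature sum is still lower in Plekhg5-/- SOD1-G93A than in Plekhg5+/+ SOD1-G93A mice, without overlap (ratio 0.903). The committed sum is lower in Plekhg5+/+ SOD1-G93A than in Plekhg5+/+ mice, without overlap (ratio 0.927). Ratios of Plekhg5-/- SOD1-G93A to Plekhg5+/+ SOD1-G93A mice are 0.647 for microglial, 1.64 for fibroblast and 1.81 for Schwann cell markers, also without overlap. Each of these differences has a two-sided exact permutation p of 0.1, so they are set apart by size and not by the test.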

How the data were processed

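Poly-A RNA of the whole spinal cord of 12 mice was sequenced with a stranded kit, 1 library per mouse. Adapters were removed by the authors with Cutadapt 2.4, STAR 2.7.2b was used for alignment to a reference of GRCm38.p6 plus human SOD1 cDNA, and featureCounts 1.6.4 assigned reads by strand to RefSeq exons, with fractions for reads of several matches (versions per the submitters' processing notes). What the authors deposited are thus estimated counts of each gene, neither normalized nor filtered. All 12 columns matched a mouse by genotype and number, and 0 columns of values were left over. The libraries held 30415643 to 38743628 counts, and the spread between mice was larger than counting noise for each pair of replicates.

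For the tests, counts were rounded to whole numbers, genes with low counts were removed with filterByExpr, and libraries were scaled with TMM. The main test was the robust quasi-likelihood test of edgeR 4.0.16 in R 4.3.3, with all 12 libraries in 1 fit and Benjamini-Hochberg adjustment over the 20155 genes tested, at a threshold of 0.05. The study itself tested with DESeq2 with a prior on fold changes, which was used here as an alternative (DESeq2 1.42.0). The SE is the log2 fold change divided by the root of the test's F, and 95% intervals use the t distribution. Values per library are TMM-scaled CPM, with a prior count of 2 on the log2 scale for correlations, which were tested with 100000 permutations. For sums of marker genes the exact permutation test was used, two-sided, whose smallest p is 0.1 with 3 against 3 mice. The fits were tested on simulated data. The figures were drawn with matplotlib 3.10.9.

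The 8 genes, the marker lists, the motifs and the tests were chosen with earlier results of these data known. The genes named are the 8, up to 3 called genes per list with the smallest adjusted p, the 3 genes most like each of the 8, and Plekhg5 and human SOD1. Microglial markers and other glial markers follow this rule in the comparisons where a list had called genes, and Opalin's values in the other comparisons were looked up after its call. Replicate numbers name different mice and pair none. Alternatives were other size factors, no scaling factors, DESeq2 with and without the prior, no filter, at least 10 counts in every library, only 2 genotypes, a replicate block, a covariate for Y-linked transcripts (over 1000 counts), rounding down, and each library left out.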

Additional observations from a re-analysis of the deposited data

Results flagged for a closer look

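Enpp6 was higher with SOD1-G93A in every mouse that had Plekhg5, relative to the mean of its control group, and lower in every mouse that lacked it. The latter rests on replicate 1 of Plekhg5-/-, the highest control library. Without it, an alternative chosen after seeing the data, the control mean went from 56.0 to 52.4 CPM, and 2 of the 3 Plekhg5-/- SOD1-G93A mice lay above it. In the same way each mouse without Plekhg5 was above its control mean without the transgene and below it with the transgene. The difference between the effects was tested as the interaction, at a log2 value of -0.40 ± 0.134 with an unadjusted p of 0.0115 and an adjusted p of 0.447 (edgeR), so it failed the correction over all genes. Both patterns are the same interaction seen from either factor. No test was made of a cause.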

How the results depend on the processing

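In 10 alternatives and in 12 fits that each left out 1 library, 0 of the 8 genes was called in any of the comparisons, so none gained a call. Of 1208 fold changes of the 8 genes 1145 kept their direction and 63 changed sign, all of these between values of at most 0.196 in size on the log2 scale, and 64 mean levels moved by less than 1 SD under other scalings. The replicate numbers of the genotypes name different mice, and same-numbered libraries correlated between -0.163 and 0.318 after removal of group means, with 5 of 18 pairs over 0.1. Averaged by replicate number over the other genotypes, the correlation was highest with their own number for 7 of 12 libraries. With the replicate block 0 of the 8 genes was called, and Gpr17 for Plekhg5 loss with SOD1-G93A changed sign to 0.0121 and the interaction of Olig2 to -0.00467.

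With Y-linked transcripts as a covariate the sign changed for Olig2 with SOD1-G93A (0.0115 with and 0.0119 without Plekhg5, 0.0117 on average), Olig1 and Sox10 on average (0.0118 and 0.00519), Cspg4 and Gpr17 for Plekhg5 loss with SOD1-G93A (0.00157 and 0.0318), Sox10 for Plekhg5 loss without SOD1-G93A (0.00284) and Enpp6 for Plekhg5 loss on average (0.0137). By library size alone the interaction was -0.0135 for Pdgfra and -0.0208 for Olig2, and with at least 10 counts in every library -0.0018 for Olig2. With a library left out the sign changed within these ranges. For SOD1-G93A with Plekhg5 they were -0.54 to 0.18 for Bmp4, -0.17 to 0.18 for Gpr17, -0.0976 to 0.0593 for Olig2 and -0.00075 to 0.11 for Sox10, and without Plekhg5 -0.21 to 0.0493 for Olig1 and -0.11 to 0.11 for Olig2. On average they were -0.0178 to 0.15 for Gpr17, -0.0684 to 0.0531 for Olig1, -0.0749 to 0.0327 for Olig2 and -0.0642 to 0.0124 for Sox10. For Plekhg5 loss with SOD1-G93A they were -0.11 to 0.0775 for Cspg4 and -0.12 to 0.20 for Gpr17. Without SOD1-G93A they were -0.23 to 0.0415 for Gpr17, -0.13 to 0.13 for Olig1, -0.0502 to 0.18 for Olig2 and -0.0838 to 0.0342 for Sox10, and on average -0.0774 to 0.00416 for Enpp6 and -0.11 to 0.0474 for Gpr17. In the interaction they were -0.0495 to 0.30 for Gpr17, -0.0874 to 0.15 for Olig2 and -0.0630 to 0.11 for Pdgfra.

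The number of all genes called depended on the processing. For SOD1-G93A with Plekhg5 it was 498, 3 with only the 2 genotypes, 1199 by DESeq2 with the prior, and 2 to 771 with a library left out, lowest without replicate 2 of Plekhg5+/+. On average over both Plekhg5 genotypes it was 245, 820 by DESeq2, and 10 to 560 with a library left out. For SOD1-G93A without Plekhg5 it ran from 0 to 45, for Plekhg5 loss with and without SOD1-G93A from 4 to 112 and from 4 to 59 (the highest without replicate 3 of Plekhg5+/+), for its average from 8 to 21, and for the interaction from 0 to 114. DESeq2 called up to 3 of the 8 Schwann cell and 2 of the 8 fibroblast markers for SOD1-G93A without Plekhg5, where edgeR called 0. The cause was not tested. With library size alone, r was 0.795 for Bmp4 with the fibroblast sum and 0.749 for Enpp6 with the mature sum. Without Bcas1, an alternative chosen after seeing the data, the log2 ratio of the committed sum changed sign to 0.0232 for SOD1-G93A without Plekhg5, -0.00655 for Plekhg5 loss with SOD1-G93A and -0.0420 for Plekhg5 loss without it, and without Mbp, 42.3% of the mature sum, that sum kept its direction in the 4 comparisons of 2 genotypes. Depth is lowest for Bmp4, at 42 to 132 counts, where counting error is smaller than the spread between mice.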
